A study of Mus musculus with 6 samples.

Results

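The genes described here are 10 genes of pluripotency and germ cell fate, *Pou5f1*, *Dppa3*, *Dppa5a*, *Nanos2*, *Nanos3*, *Dnd1*, *Dazl*, *Ddx4*, *Utf1* and *Sox2*, taken by symbol from the 26251 genes listed over 6 single cell mRNA libraries of mouse gonads at E15.5. They were followed in germ cells, defined as cells with at least 5 UMIs (unique molecular identifiers, each marking 1 captured transcript) of *Dazl* and at least 2 of *Ddx4*, and in somatic cells. Of 39350 cells that passed the filter on genes, mitochondrial and *Hbb* UMIs, 1374 were germ cells and 37869 were somatic. The other cells lay in the germ cluster below the rule and were left out. *Dazl* and *Ddx4* chose the cells, so their levels in germ cells are given as a description. Cells that missed the rule with 3 or 4 *Dazl* UMIs numbered 0 to 46 in a library, and those that met it with 5 or 6 numbered 1 to 38.

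Gonads came from 3 groups with 2 libraries each, control XY (testis, Amh+/+; Inhbb+/+), dKO XY (labelled testis, from embryos lacking both *Amh* and *Inhbb*, written Amh-/-; Inhbb-/-) and control XX (ovary, Amh+/+; Inhbb+/+). The paper describes the dKO XY gonad at E15.5 as an ovotestis. In it, germ cells at the poles had entered meiosis and those in the central cords had not. Germ cells of both places are pooled in the dKO XY values here. All were on a C57BL/6 background and the gonad pair of 1 animal made 1 library, which was dissociated, frozen and thawed before capture. The embryos came from crosses of mice heterozygous for 1 or the other null allele. The comparison of dKO XY with control XX differs both in genotype and in chromosomal sex, which cannot be told apart in it.

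Total UMIs per library ranged from 152972655 to 296488697. In supporting cells *Amh* was at 2012 and 1910 CPM (UMIs of the gene in 1000000 UMIs summed over those cells) in the libraries of control XY, at 18.7 and 15.7 CPM for dKO XY and at 1.36 and 1.41 CPM for control XX. *Inhbb* was at 163 and 186, 42.6 and 50.8, and 37.5 and 25.3 CPM, in the same order. Each pair of libraries shared 4 to 25 cell barcodes. Control XY held only 15 and 9 germ cells, against 442 and 388 for dKO XY and 298 and 222 for control XX, so that each control XY value in germ cells below rests on very few cells. Each level is a sum over cells, in which fewer expressing cells and less RNA per cell cannot be told apart.

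In mice, germ cells that reach the fetal gonad still express core pluripotency factors. In the ovary, retinoic acid and its target *Stra8* bring them into meiosis and these factors are silenced, whereas in the testis germ cells avoid meiosis, arrest in the cell cycle and start a male programme in which *Nanos2* has a central role. The 10 genes cover several roles in this choice. *Pou5f1* (17:35506018-35510772), *Sox2* (3:34650405-34652461) and *Utf1* (7:139943789-139945112) encode the transcription factors OCT4 and SOX2 and a chromatin-associated factor of embryonic stem cells. *Dppa3* (6:122626410-122630272), also called Stella, protects DNA methylation in the zygote, and *Dppa5a* (9:78367052-78368177) encodes a KH-domain RNA-binding protein of pluripotent cells. *Nanos2* (7:18987400-18988962) and *Nanos3* (8:84173731-84185217) encode zinc finger proteins that repress target mRNAs, with *Nanos3* needed for survival of primordial germ cells. *Dnd1* encodes an RNA-binding partner of the NANOS proteins. *Dazl* (17:50279395-50293636) encodes an RNA-binding protein that licenses germ cells for sexual fate, and *Ddx4* (13:112598333-112652475) encodes the helicase MVH of the germ line. Positions are from the GENCODE M21 annotation of GRCm38.

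Promoters of *Pou5f1*, *Utf1* and *Sox2*, transcriptional regulators of pluripotent cells that were higher in germ cells of dKO XY than of control XX, are shown with that of *Ddx4*, one of the genes that chose the cells. Each runs from 250 bases before to 50 bases after a RefSeq start on GRCm38.p6, 5′ to 3′. Capitals mark any match, on either strand, to GGGGCGGGG (GC box), ATGCAAA (octamer core, the kind of motif that OCT4 binds), TTCCCGCC (E2F6-type) or CACGTG (E-box), and the motifs do not overlap each other here. Of 32851 mouse promoters of that length, 11.4% held the GC box, 4.63% the octamer core, 2.19% the E2F6-type motif and 7.15% the E-box. The bases G and C made up 62.7% of the *Pou5f1*, 62% of the *Utf1*, 66.3% of the *Sox2* and 72% of the *Ddx4* window. Over all these promoters the median was 52.7% and the upper quartile 61.7%, and the motif shares were not taken among promoters of like GC content. The motifs were chosen after the promoters had been read.
Pou5f1 (chr17:35505782-35506081, plus strand): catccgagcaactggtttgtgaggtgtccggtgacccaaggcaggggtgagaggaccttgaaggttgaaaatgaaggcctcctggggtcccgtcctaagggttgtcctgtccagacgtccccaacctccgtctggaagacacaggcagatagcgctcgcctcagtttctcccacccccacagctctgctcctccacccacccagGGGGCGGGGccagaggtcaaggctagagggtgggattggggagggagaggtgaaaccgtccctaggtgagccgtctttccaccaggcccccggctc
Utf1 (chr7:139943606-139943905, plus strand): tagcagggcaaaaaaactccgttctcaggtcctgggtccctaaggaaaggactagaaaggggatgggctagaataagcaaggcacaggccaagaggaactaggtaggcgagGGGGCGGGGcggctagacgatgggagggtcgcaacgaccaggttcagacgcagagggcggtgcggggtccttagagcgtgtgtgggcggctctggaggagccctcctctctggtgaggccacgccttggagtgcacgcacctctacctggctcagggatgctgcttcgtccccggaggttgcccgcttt
Sox2 (chr3:34649745-34650044, plus strand): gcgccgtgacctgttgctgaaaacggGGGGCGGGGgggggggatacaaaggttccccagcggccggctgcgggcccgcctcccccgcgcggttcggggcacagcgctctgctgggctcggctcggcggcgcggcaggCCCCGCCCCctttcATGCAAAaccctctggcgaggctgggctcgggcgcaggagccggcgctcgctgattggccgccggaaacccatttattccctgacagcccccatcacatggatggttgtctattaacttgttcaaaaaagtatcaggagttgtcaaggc
Ddx4 (chr13:112652261-112652560, minus strand): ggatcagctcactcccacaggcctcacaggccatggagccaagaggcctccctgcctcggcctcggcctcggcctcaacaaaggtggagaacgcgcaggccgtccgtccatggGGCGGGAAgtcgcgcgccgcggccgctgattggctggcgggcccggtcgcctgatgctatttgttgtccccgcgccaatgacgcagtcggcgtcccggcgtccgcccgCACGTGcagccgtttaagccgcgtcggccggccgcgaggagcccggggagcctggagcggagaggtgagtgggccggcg
The printed windows of *Pou5f1*, *Utf1* and *Sox2* each held a GC box, with 2 of them in that of *Sox2*, which also held an octamer core. The window at a second RefSeq start of *Pou5f1*, not printed, held none of the 4 motifs. That of *Ddx4* held an E2F6-type motif and an E-box. Matches to letters are a description of the window and no binding was measured. *Dazl*, *Nanos2* and *Nanos3* had none of the 4 motifs in theirs.

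All 8 genes that did not choose the cells were called higher in germ cells of dKO XY than of control XX. *Utf1* had the largest difference among genes with more than 1 UMI in control XX, at 15.1-fold. Across all 14539 genes tested, 41.6% were called, 20.4% higher in dKO XY germ cells and 21.2% lower, so a call alone was common in this comparison.

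*Pou5f1* was at 305 and 212 CPM in the germ cells of the dKO XY libraries, at 40.8 and 21.9 in control XX and at 337 and 338 in control XY. The dKO XY libraries thus lay far above control XX and near control XY. The difference from control XX was a log2 fold change of 3.10 ± 0.285 (SE; adjusted p = 6.99e-07, edgeR quasi-likelihood test with Benjamini-Hochberg adjustment over all genes, n = 2 libraries per group).

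*Sox2*, the partner of OCT4 in pluripotent cells, was at 119 and 109 CPM in dKO XY, 20.3 and 12 in control XX and 56.9 and 57.3 in control XY. It was the one member of the 8 with both dKO XY libraries above both control XY libraries. Against control XX its log2 fold change was 2.86 ± 0.242 (SE; adjusted p = 2.92e-07, edgeR).

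*Utf1* was at 379 and 240 CPM in dKO XY, 25.1 and 17.4 in control XX and 508 and 412 in control XY. Its log2 fold change against control XX was 3.92 ± 0.284 (SE; adjusted p = 6.94e-08, edgeR).

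*Dppa3* was at 1146 and 779 CPM in dKO XY, 120 and 70.0 in control XX and 1087 and 1430 in control XY. Its log2 fold change against control XX was 3.40 ± 0.297 (SE; adjusted p = 4.16e-07, edgeR). *Dppa5a* reached 1130 and 692 CPM in dKO XY, well over the 230 and 142 of control XX, with 654 and 1256 in control XY, and its dKO XY libraries fell between those of control XY. It rose 5.12-fold over control XX (adjusted p = 1.33e-05, edgeR).

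Among the RNA regulators, *Nanos2* was at 4.25 and 2.71 CPM in dKO XY and at 0.0834 and 0 in control XX, where 1 UMI was seen in all germ cells together. Control XY reached 35.4 and 29.6 CPM, from 23 and 16 UMIs, above every other library. Counted over the 4 libraries, the level in dKO XY was 72.3 times that in control XX, with an exact interval of 12.7 to 2879 that covers counting error only. The call rested on a fitted log2 fold change of 5.98, which depends on the prior count for a gene this low in control XX (adjusted p = 3.29e-05, edgeR). That value ran from 4.36 with a looser rule for germ cells to 8.66 without control XX replicate 1, and the call held under each of 17 alternatives.

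*Nanos3* was at 21.9 and 14.4 CPM in dKO XY, 3.75 and 3.17 in control XX and 63.1 and 75.7 in control XY. *Dnd1* was at 89.3 and 68.4 CPM in dKO XY, 19.1 and 9.52 in control XX and 288 and 179 in control XY. Both had the 3 groups in the same order, control XY highest and control XX lowest. Both were called higher than in control XX, at 5.43-fold for *Nanos3* and 5.68-fold for *Dnd1* (adjusted p = 2.12e-05 and 4.33e-06, edgeR).

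*Dazl* was at 895 and 754 CPM in dKO XY, 940 and 959 in control XX and 611 and 587 in control XY. *Ddx4* was at 303 and 290, 277 and 278, and 329 and 342 CPM in that order. Both genes stayed within a factor of 2 over the 6 libraries, where the rule that chose the cells sets a minimum of each.

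**Figure D1:**
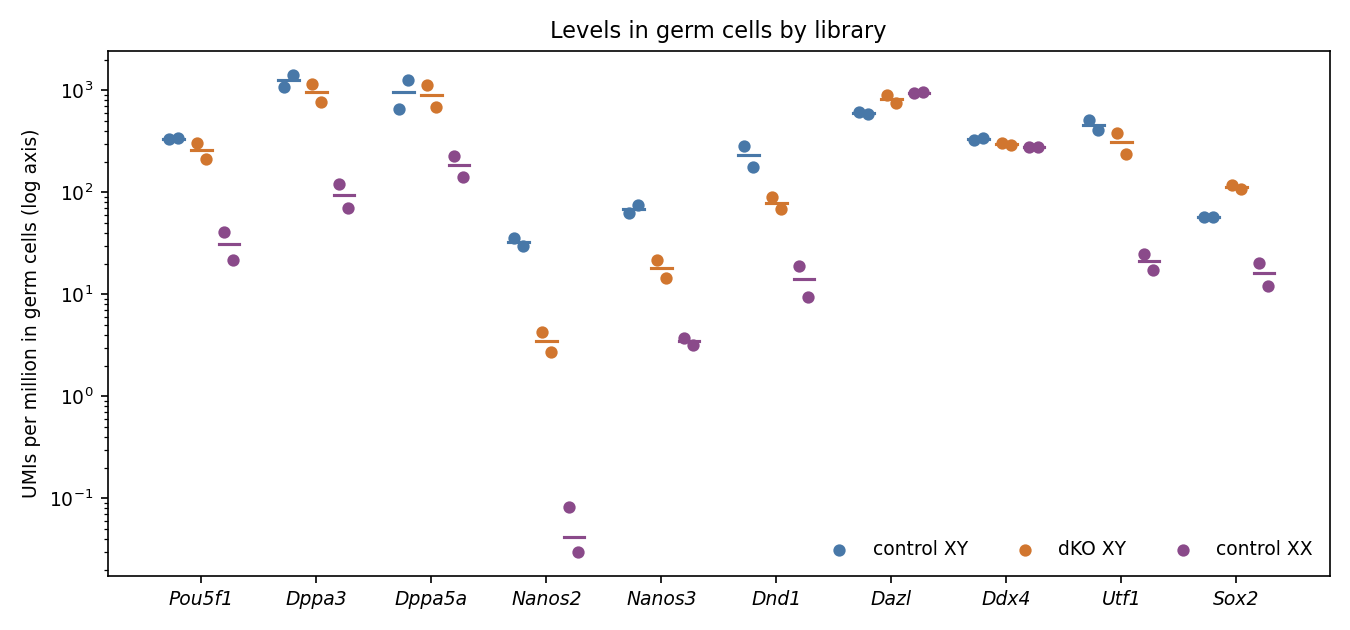
Levels of the 10 genes in germ cells, in CPM on a log axis, with 1 point per library and a line at the mean of the 2 libraries of a group. A library with no UMI, control XX replicate 2 for *Nanos2*, is drawn at the bottom of the axis. The *Pou5f1*, *Dppa3* and *Utf1* points of dKO XY lie far above those of control XX. Those of *Dazl* and *Ddx4*, which chose the cells, lie close together.

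The germ cells chosen by the rule were not all free of somatic transcripts. Of the 1374 cells, 1086 lay in the cluster named germ from its markers, and the others lay mostly in supporting clusters. The summed level of 8 Sertoli markers in germ cells was 824 and 1383 CPM in dKO XY, 1498 and 735 for control XY libraries and only 90.9 and 71.7 for control XX, against 3419 to 5164 in dKO XY supporting cells. The summed level of 8 granulosa markers in germ cells was 268 and 687 CPM for dKO XY and 832 and 525 for control XX. Without the cells outside the germ cluster all 8 genes were still called higher in dKO XY than in control XX. *Nanos3* then gave a log2 fold change of 3.27 in place of 2.44, and 1.49 with a looser rule of at least 2 *Dazl* and 1 *Ddx4* UMIs (adjusted p = 0.00516, edgeR). The mean level of *Pou5f1* was 321 CPM in dKO XY and 36.0 in control XX among the cells of the germ cluster, in place of 259 and 31.3.

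The share of germ cells with at least 1 UMI gave the same order. Cells were thinned to 10000 UMIs, which left 423 and 376 dKO XY, 277 and 203 control XX and 14 and 8 control XY germ cells. *Pou5f1* was then seen in 87.0% (95% exact binomial interval 83.4 to 90.1%) and 79.5% (75.1 to 83.5%) of dKO XY germ cells and in 25.3% (20.3 to 30.8%) and 16.3% (11.5 to 22.1%) of those of control XX. In endothelial cells, which should lack it, it was seen in 2.63% and 3.64% of dKO XY and 2.96% and 1.90% of control XX cells after the same thinning. *Sox2* was seen in 63.4% and 59.3% of dKO XY germ cells and in 15.2% and 7.88% of control XX, against 0.877% and 0% of dKO XY endothelial cells. Median depths before thinning were 38506 and 38950 UMIs in dKO XY germ cells and 34292 and 42807 in dKO XY endothelial cells. *Pou5f1* and *Sox2* were thus above background in both dKO XY and control XX germ cells.

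*Nanos2* was seen in 3.78% and 1.60% of thinned dKO XY germ cells and in 0 of 277 and 0 of 203 of control XX, which allows a share of cells with a UMI of up to 1.08% and 1.48% by a bound of 3 cells, or 1.32% and 1.80% by the exact 95% interval. This limits cells with a UMI at that depth and not cells that express the gene. Before thinning the shares were 10.4% and 7.22% for dKO XY, against 0.336% and 0% for control XX. *Nanos3* was seen in 19.6% (15.9 to 23.7%) and 14.4% (10.98 to 18.3%) of dKO XY germ cells after thinning and in 2.89% (1.25 to 5.61%) and 3.94% (1.72 to 7.62%) of those of control XX. Control XX endothelial cells gave 4.93% and 3.81%, with intervals of 2.39 to 8.87% and 1.05 to 9.47% that overlapped those of control XX germ cells, so *Nanos3* was not detectably above the endothelial share there. In all 8 genes the lower dKO XY share lay above the higher control XX share. How many of all genes had this order was not counted. These intervals cover counting error only.

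**Figure D2:**
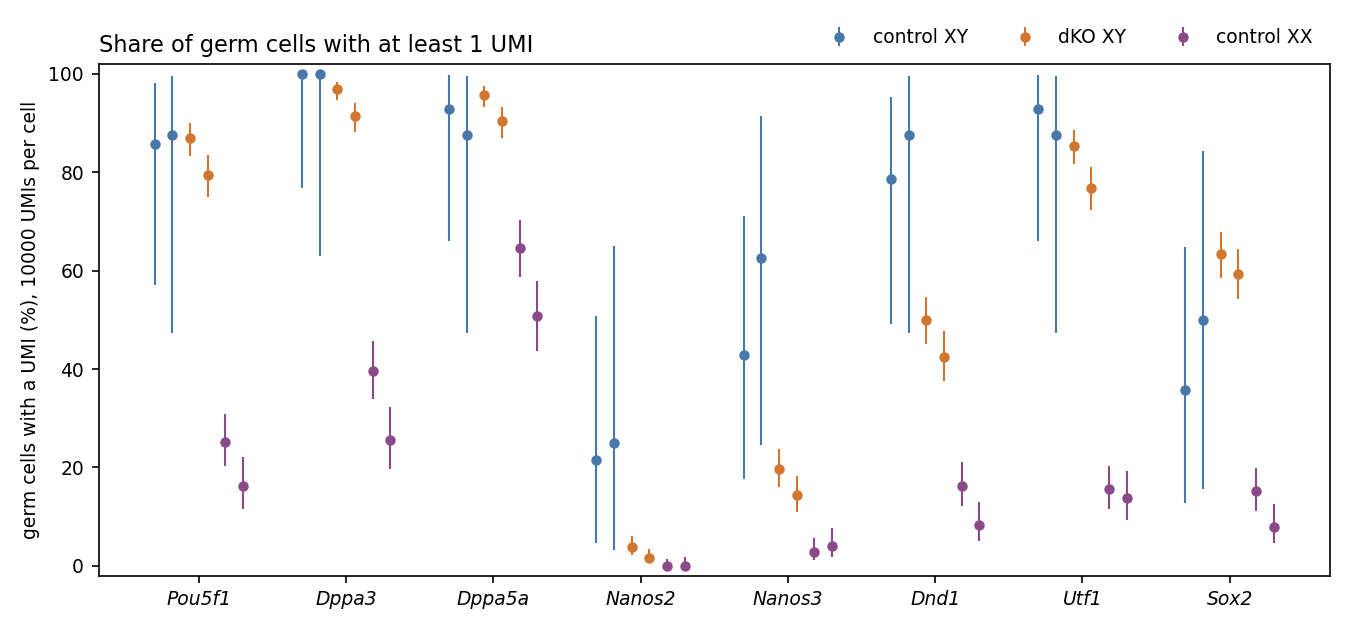
Share of germ cells with at least 1 UMI of each gene after thinning every cell to 10000 UMIs, in percent, with 1 point per library and exact 95% binomial intervals. The control XY intervals are wide because only 14 and 8 cells remained. The dKO XY points lie above the control XX points for each of the 8 genes plotted, which leave out *Dazl* and *Ddx4*.

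Germ cells were clustered again without the 10 genes among the variable genes, which gave 8 subclusters. These are described and not tested against each other, since a cluster is drawn from its own genes. Subclusters 3, 4, 5 and 7, with 443 of the 1374 cells (32.2%), were led by granulosa, Sertoli, interstitial and Leydig, or epithelial genes. Subcluster 0 was led by *Lhx1* and the Nodal antagonist genes *Lefty1* and *Lefty2*, and had 185 and 122 cells of dKO XY, 6 and 7 of control XY and 1 and 0 of control XX. Subcluster 1 was led by *Phlda2*, *Stra8* and *Msx1*, with the meiotic cohesin gene *Rec8* further down, and held 84 and 72 dKO XY and 101 and 37 control XX cells. Subcluster 2, with *Meiob* and *Prdm9* of later meiotic prophase, held 101 and 118 control XX and 6 and 0 dKO XY cells. Subcluster 6, with *Tcl1* and *Nanog*, held 49 and 38 cells of dKO XY, 4 and 0 of control XY, and was shallow, at a median of 15196 UMIs.

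The levels of the genes changed by subcluster. In dKO XY *Pou5f1* was at 403 and 333 CPM in subcluster 0, 509 and 415 in subcluster 6 and 264 and 246 in subcluster 1. In control XX it was at 98.1 and 84.3 CPM in subcluster 1 and 7.43 and 6.56 in subcluster 2. *Dnd1* was at 121 and 106 CPM in subcluster 0 of dKO XY and at 57.6 and 47.4 in subcluster 1. *Sox2* in dKO XY was at 165 and 177 CPM in subcluster 0 and 130 and 138 in subcluster 1. In control XX *Sox2* was at 54.6 and 73.8 CPM in subcluster 1 and at 0.769 and 0.212 in subcluster 2, there from 3 and 1 UMIs.

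Subcluster 1 was the one subcluster with at least 20 cells in each dKO XY and control XX library, so dKO XY was compared with control XX within it. Of 10536 genes tested there, 4.68% were called, 2.1% higher in dKO XY and 2.58% lower. *Pou5f1*, *Dppa3*, *Utf1* and *Sox2* were called higher in dKO XY, 4 of the 7 genes tested. *Pou5f1* had a log2 fold change of 1.55 ± 0.174 (SE; adjusted p = 4.93e-07, edgeR). *Utf1* was at 217 and 200 CPM against 64.6 and 74.6 in control XX, with a log2 fold change of 1.68 ± 0.182 (SE; adjusted p = 2.55e-07, edgeR). *Dppa3* was at 788 and 708 against 292 and 340 CPM, and *Sox2* at 130 and 138 against 54.6 and 73.8 (adjusted p = 3.45e-06 and 1.47e-04, edgeR). The log2 fold changes of these 4 genes ran from 1.18 to 1.68 here, and from 2.86 to 3.92 over all germ cells, and the difference between these sizes was not tested.

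*Dppa5a*, *Nanos3* and *Dnd1* did not pass the test within subcluster 1. *Dppa5a* was at 646 and 537 CPM against 506 and 446, with a log2 fold change of 0.39 ± 0.165 (SE; adjusted p = 0.207, edgeR). *Dnd1* was at 57.6 and 47.4 against 45.4 and 43.8 CPM, with 0.32 ± 0.212 (SE; adjusted p = 0.486, edgeR), and *Nanos3* at 8.28 and 10.1 against 3.49 and 4.86 CPM, with 1.31 ± 0.426 (SE; adjusted p = 0.0757, edgeR). *Nanos2* was too low there to be tested.

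In the same subcluster 5 of 24 tested genes of a list of other pluripotency genes were called higher in dKO XY and 0 lower. Named after their values were seen, they were *Nanog*, *Prdm14*, *Prdm1*, *Dppa2* and *Tcl1*, and the list's median log2 fold change was 0.33. Of 25 tested meiotic prophase genes, 3 were called lower and 0 higher, namely the recombinase gene *Dmc1*, *Mei1* and the synaptonemal complex gene *Sycp3*. *Stra8* was at 796 and 836 CPM in dKO XY, below the 1311 and 988 of control XX, with a log2 fold change of -0.42 ± 0.164 (SE; adjusted p = 0.164, edgeR). Unlike the members, genes of these lists were not left out of the variable genes that drew the subclusters. *Stra8* and *Rec8* were among the leading genes of this subcluster, so its cells may have been grouped for like levels of meiotic genes. Few calls on such genes, and the *Stra8* result, thus cannot show that the groups were alike in them. Their difference apart from this grouping was not tested.

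**Figure D3:**
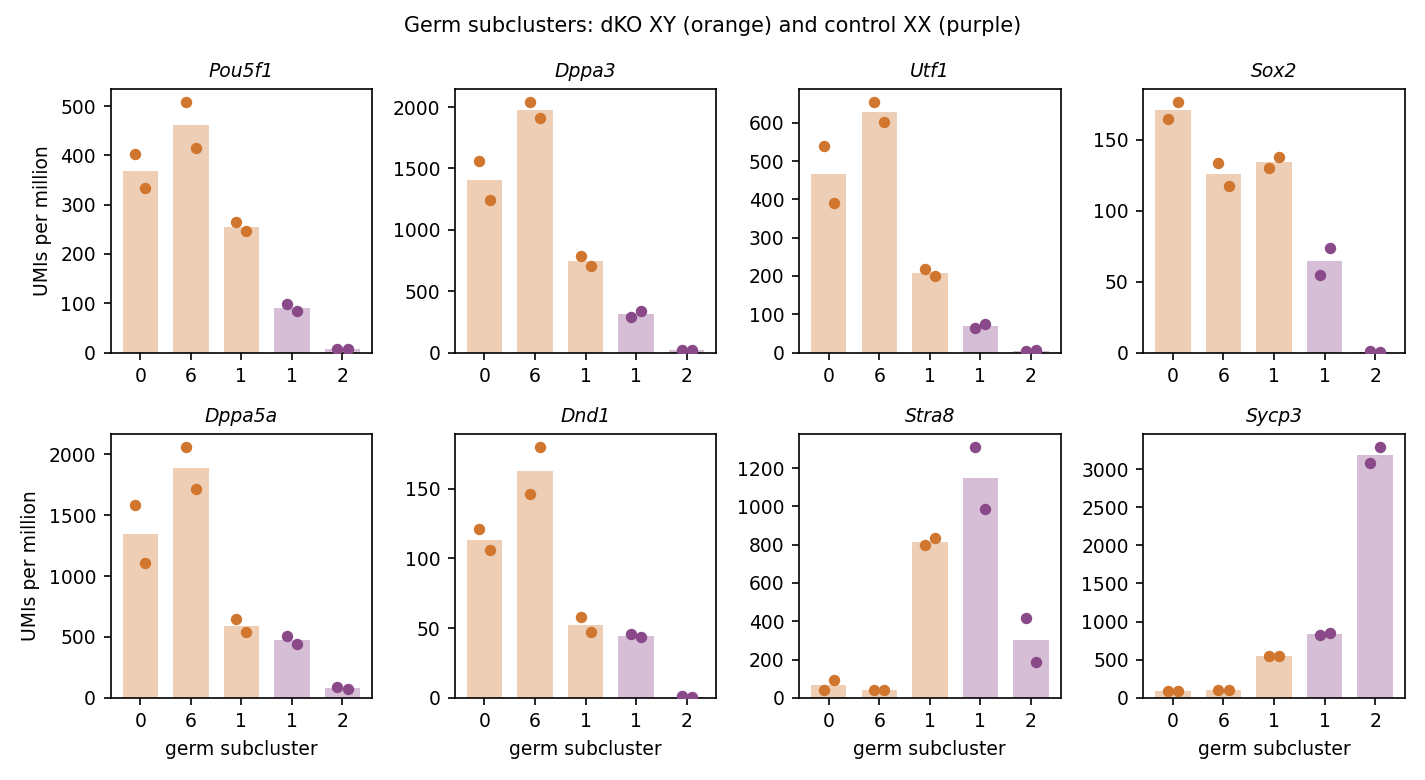
Levels of 6 of the genes and of *Stra8* and *Sycp3* in germ subclusters 0, 6, 1 and 2, in CPM, with a bar at the mean and 1 point per library that held at least 20 cells of the subcluster. Within subcluster 1 the dKO XY points of *Pou5f1*, *Dppa3*, *Utf1* and *Sox2* lie above those of control XX, while those of *Dnd1* lie close together.

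Cells with *Stra8* transcripts were also compared one by one after thinning. In dKO XY 84.0% of 162 and 80.4% of 163 cells with a *Stra8* UMI also had a *Pou5f1* UMI (95% exact binomial intervals 77.4 to 89.2% and 73.4 to 86.2%), near the 86.2% and 74.6% of cells without *Stra8*. In control XX 29.5% of 224 and 27.8% of 115 cells with *Stra8* had *Pou5f1* (23.6 to 35.9% and 19.9 to 37.0%), against 3.77% and 4.55% of cells without it. A single UMI made a *Stra8* cell here and no background share of *Stra8* was measured. In subcluster 0 of dKO XY, where *Pou5f1* was high, *Stra8* was at 40.8 and 91.0 CPM.

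The genes closest to each member, by Pearson correlation of log2 CPM over 17 sums of subcluster and library, were other members for *Utf1* and *Dppa3*. Only genes with a mean of at least 20 CPM over these sums were ranked, 6252 or 6253 for each member. *Nanos2* and *Nanos3*, at means of 2.21 and 12.3 CPM, could thus not be named as closest. *Utf1* was closest to *Dppa3* and *Dppa3* to *Utf1* (r = 0.993), and *Pou5f1* came next for both (r = 0.988 and 0.992). For *Pou5f1* itself *Anp32b* came first (r = 0.993) and *Dppa3* next (r = 0.992). *Sall4*, a zinc finger gene of the pluripotency network, was closest to *Sox2* (r = 0.988). *Ranbp1* and *Ube2c* were closest to *Dppa5a*, *Mif* and *Rcc2* to *Dnd1*, *Fzr1* and *Set* to *Nanos3* and *Sf3b4* and *Sys1* to *Nanos2*. These values share libraries and cells and are a description.

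Of other pluripotency genes on a list of 28, 27 were tested in germ cells of dKO XY against control XX. Of these 17 were called higher (63.0%, against 20.4% of all genes tested) and 4 lower (14.8%, against 21.2%), with a median log2 fold change of 1.73 against 0.01 over all genes tested. *Nanog* was at 21.7 and 17.4 CPM in dKO XY against 1.08 and 0.705, and *Prdm14*, a repressor of somatic fate in germ cells, at 7.95 and 5.86 against 0.417 and 0.118. *Tcl1* was at 54.0 and 38.7 against 3.42 and 0.705 CPM. *Tdgf1*, the Nodal co-receptor, had 1.20 and 0.801 CPM in dKO XY and no UMI in control XX. *Fbxo15*, *Lin28b*, *Stat3* and *Tfcp2l1* were called lower in dKO XY.

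Of 18 RNA regulators and partners 3 were called higher (16.7%, against 20.4% of all genes tested) and 7 lower (38.9%, against 21.2%), with a median of 0.09. *Igf2bp1* and *Dazap1* were among those that rose, and *Meioc*, *Ythdc2*, *Patl2* and *Mael* had the largest falls. *Meioc* and *Ythdc2*, which act together on meiotic entry, were at 57.4 and 60.5 against 278 and 319 CPM, and at 38.5 and 37.5 against 94.9 and 109. Of 19 fetal male germ genes 18 were tested, and 7 were called higher (38.9%) and 4 lower (22.2%, near the share of all genes), with a median of 0.46. *Lefty2*, an antagonist of Nodal, was at 47.0 and 35.6 CPM in dKO XY and had no UMI in control XX, and *Lefty1* was at 47.6 and 38.7 against 0.250 and 0.118. *Nodal* and *Rhox10* were also higher, and *Rhox13*, *Morc1*, *Mov10l1* and *Cdkn1c* were lower. Of 25 tested meiotic prophase genes 21 were called lower and 0 higher, with a median of -2.13. *Prdm9*, which marks sites of recombination, was at 8.87 and 9.37 against 175 and 244 CPM, and *Rad51ap2*, *Syce3* and *Mei1* had the next largest falls.

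Against control XY, the 8 genes split. With only 24 control XY germ cells, 2.85% of 14563 genes were called, 1.26% higher in dKO XY and 1.59% lower. *Nanos2*, *Nanos3* and *Dnd1* were called lower in dKO XY, and *Sox2* higher. *Nanos2* fell by 3.15 ± 0.487 on the log2 scale (SE; adjusted p = 0.00151, edgeR), *Nanos3* by 1.86 ± 0.310 (SE; adjusted p = 0.00273) and *Dnd1* by 1.5 ± 0.282 (SE; adjusted p = 0.00749). *Sox2* rose by 1.06 ± 0.273 (SE; adjusted p = 0.0436), a call that was lost under 6 of 12 alternatives, with adjusted p from 0.000393 to 0.306.

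*Pou5f1*, *Dppa3*, *Dppa5a* and *Utf1* did not pass the test against control XY. Their log2 fold changes were -0.32 ± 0.270, -0.33 ± 0.274, -0.01 ± 0.316 and -0.50 ± 0.257, with adjusted p of 0.583, 0.578, 0.990 and 0.335 (edgeR). A p over the threshold does not show equal levels, and these errors leave room for moderate differences in either direction. *Dnd1* was no longer called when control XY replicate 1 was left out (log2 fold change -1.16, adjusted p = 0.172, edgeR), which left 9 control XY cells. The Sertoli marker sum in these cells was of the size of that in dKO XY germ cells, as given above. The summed level of 6 Leydig markers was 89.2 and 2693 CPM in control XY germ cells, against 420 and 301 in dKO XY. The part of somatic transcripts in the differences was not tested.

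Of 19 fetal male germ genes 9 were called lower in dKO XY than in control XY and 0 higher, with a median of -0.94. Named after their values were seen, they included *Dnmt3l*, the cofactor of de novo DNA methylation, *Piwil4*, *Tdrd5* and *Morc1*. *Dnmt3l* was at 58.4 and 1.85 CPM in the control XY libraries, so that it rested on replicate 1, and *Piwil4* was at 63.1 and 16.6. *Tdrd5* was at 125 and 155 there, against 33.4 and 32.5 in dKO XY. Without control XY replicate 1 the calls over all genes fell from 415 to 66. Of 25 meiotic genes 8 were called higher and 0 lower, led by *Stra8*, and of 27 pluripotency genes 0 were higher and 2 lower (*Dppa4* and *Tfcp2l1*).

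Transcripts of the 10 genes outside germ cells were counted in somatic cells, in classes rebuilt here from clusters and their markers. The names supporting, interstitial, Leydig and endothelial stand for cells like these types by markers. Of the 8 genes that did not choose the cells, germ cells of dKO XY held between 75.1% and 89.9% of the UMIs in all cells that passed the filter for 6, and smaller shares for *Nanos3* and *Dnd1*. Germ cells held only 31.5% and 29.0% of *Nanos3* UMIs in dKO XY, 3.13% and 2.15% in control XX and 4.57% and 4.84% in control XY. For *Dnd1* they held 55.4% and 44.9%, 20.9% and 16.4%, and 19.0% and 9.71%.

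*Nanos3* was higher in control XX supporting cells, at 12.1 and 14.8 CPM, than in control XX germ cells, at 3.75 and 3.17. In supporting cells of dKO XY it was at 4.76 and 4.99 CPM and in control XY at 5.41 and 3.19. Interstitial cells followed, at 7.82 and 10.6 CPM in control XX and 4.98 and 3.43 in dKO XY. *Nanos3* was thus lower in dKO XY than in control XX in both somatic classes and higher in germ cells, and the difference between germ and supporting cells passed a test chosen after the values were seen (log2 3.84 ± 0.334 SE, adjusted p = 7.50e-06, edgeR with library as a block, 31.1% of 16455 genes called).

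*Dnd1* was highest outside germ cells in Leydig cells, the steroidogenic cells of the testis, with 12.8 and 11.5 CPM for control XY and 14.6 and 15.7 for dKO XY. There were 13.6 and 14.4 *Dnd1* UMIs per *Dazl* UMI in control XY Leydig cells, against 1.28 and 1.56 in supporting cells of the same libraries. Germ cells there had 0.471 and 0.305, but they were chosen for holding *Dazl*, which lowers this ratio in them. *Utf1* was highest outside germ cells of XY libraries in supporting cells, at 9.31 and 7.79 CPM in control XY and 14.6 and 14.4 in dKO XY. Leydig cells held less, with 7.11 and 7.32 CPM for control XY and 8.78 and 10.9 for dKO XY, while endothelial cells of control XY had 0 and 0.145. No cell of control XX fell in the Leydig class. *Dnd1* overlaps *Wdr55* on the opposite strand and has a pseudogene named *Dnd1-ps*, *Pou5f1* and *Nanos2* overlap antisense genes and *Dppa3* has a pseudogene *Dppa3-ps*. The strand setting of the counting is not given in the sources used here, so reads shared with these genes cannot be told apart. On the same strand *Nanos3* overlaps the miRNA genes *Mir181c* and *Mir181d*, and *Sox2* overlaps *Sox2ot*, each with 0 shared exon bases.

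**Figure D4:**
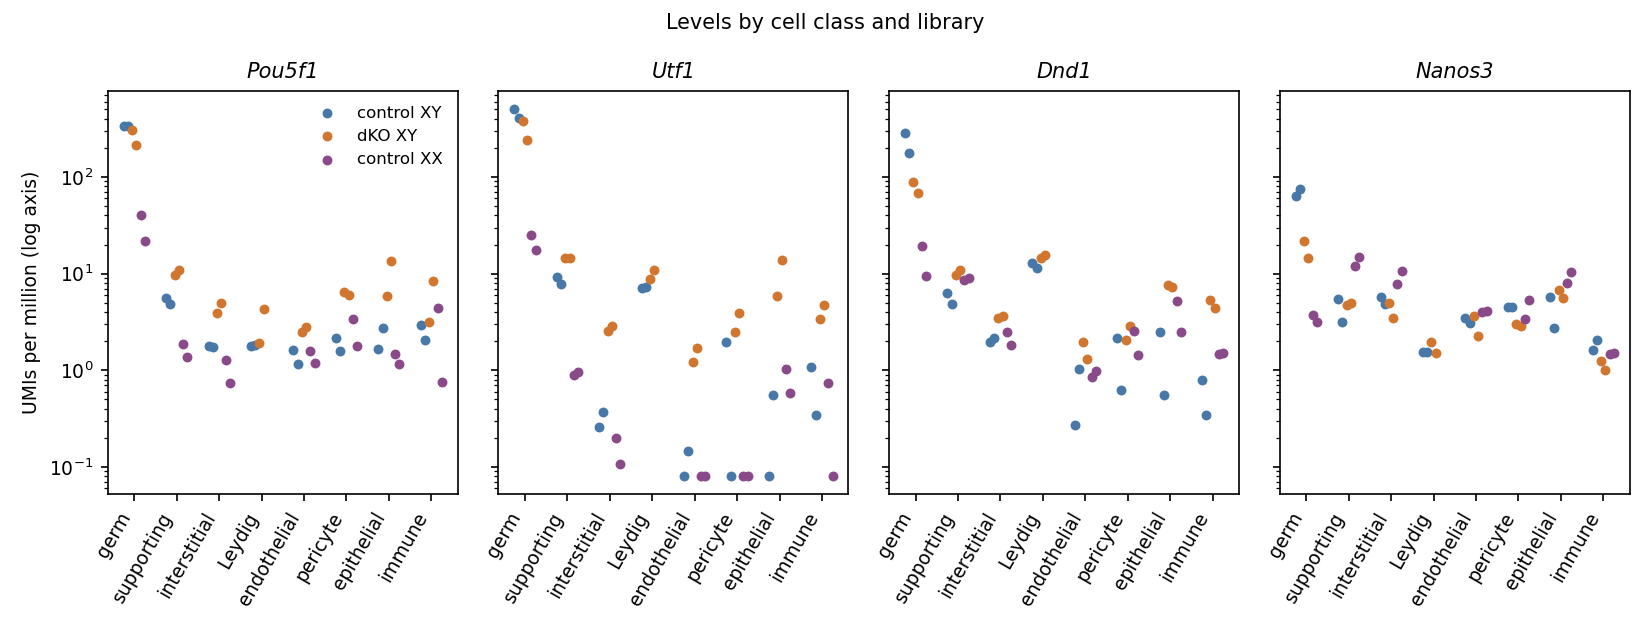
Levels of *Pou5f1*, *Utf1*, *Dnd1* and *Nanos3* by cell class, in CPM on a log axis, with 1 point per library. Values below 0.08 are drawn at 0.08, and Leydig cells are shown for XY libraries only. *Pou5f1* falls steeply from germ to other classes, while *Nanos3* of control XX is higher in supporting than in germ cells.

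In supporting cells of dKO XY against control XX, 40.2% of 15740 genes were called, 20.8% higher and 19.3% lower. *Pou5f1*, *Dppa3*, *Dppa5a*, *Nanos2*, *Utf1* and *Sox2* were called higher, *Nanos3* lower, and *Dnd1* did not pass (log2 fold change 0.28 ± 0.174 SE, adjusted p = 0.226, edgeR). *Pou5f1* was at 9.77 and 10.8 CPM in dKO XY, 1.85 and 1.37 in control XX and 5.54 and 4.79 in control XY. *Dppa3* was at 30.5 and 31.9, 1.13 and 0.961, and 10.3 and 5.30 CPM in that order. The call on *Nanos2* rested on 13 UMIs against 3 and was lost under 5 of 13 alternatives. In dKO XY supporting cells *Pou5f1* stood at 3.20% and 5.09% of its germ cell level in the same library and *Dppa3* at 2.66% and 4.09%. Of 8 germ markers, the 7 high enough in germ cells for a ratio had a median of 2.85% and 4.53% there, so both genes lay close to the markers' proportion. *Nanos3*, at 21.7% and 34.6%, lay above each of these markers, which reached 8.44% and 16.1%. *Dnd1*, at 10.9% and 16.0%, lay above their median but within their range in dKO XY replicate 2. The supporting cells of control XY are mostly a Sertoli cluster and those of control XX a granulosa cluster, while dKO XY cells are spread over the Sertoli and supporting lineage clusters. The 8 germ markers summed to 31.8 and 46.5 CPM in dKO XY supporting cells and 90.7 and 127 in control XX, and were likewise lower in dKO XY than in control XX germ cells. The part of germ cell transcripts in the supporting cell differences was not tested.

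Leaving out supporting cells with any *Dazl* or *Ddx4* UMI, the calls on *Pou5f1*, *Dppa3*, *Dppa5a*, *Utf1*, *Sox2* and *Nanos3* held. The level of *Dppa3* fell from 31.2 to 12.7 CPM in dKO XY and that of *Pou5f1* from 10.3 to 5.13, both as means of 2 libraries. In control XX the mean of *Nanos3* was 13.4 CPM with these cells and 13.2 without them, and that of *Dnd1* was 8.87 and 8.86. *Nanos3* and *Dnd1* in control XX supporting cells were thus at nearly the same level in the cells without *Dazl* or *Ddx4* UMIs.

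Against control XY, where 17.4% of 15740 genes were called, 10.2% higher and 7.16% lower, dKO XY supporting cells were higher in *Pou5f1*, *Dppa3*, *Dppa5a*, *Dnd1*, *Utf1* and *Sox2*. *Sox2* was at 2.67 and 4.01 CPM against 0.503 and 0.510 in control XY, a log2 fold change of 2.72 ± 0.484 (SE; adjusted p = 0.00415, edgeR). *Dppa3* rose 4.23-fold (adjusted p = 5.34e-04, edgeR). Without cells holding *Dazl* or *Ddx4*, *Pou5f1* and *Utf1* were no longer called (adjusted p = 0.162 and 0.226, edgeR). Germ cells were far rarer in control XY than in dKO XY libraries, and dKO XY libraries also had more *Dazl* in supporting cells, at 18.3 and 31.8 CPM against 4.91 and 3.06. Without control XY replicate 2, only 2 of the 8 genes were called. The part of germ cell transcripts in these differences was not tested.

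In interstitial cells, where 26.2% of 16860 genes were called, 14% higher in dKO XY than in control XX and 12.2% lower, *Dppa3* was at 8.71 and 9.98 CPM in dKO XY against 0.537 and 0.242. It was one of 6 called higher, with *Pou5f1*, *Dppa5a*, *Dnd1*, *Utf1* and *Sox2*, and *Nanos3* was called lower. *Nanos2* was too low to be tested. Against control XY, where 6.54% of genes were called, 3.94% higher and 2.6% lower, the same 6 genes were called higher. In control XY *Dppa3* had 0.551 and 0.945 CPM. Its 12.4-fold difference stood beside one of 14.3-fold in *Dazl* in the same cells. The call on *Dnd1* was lost under 8 of 15 alternatives against control XX and 7 of 14 against control XY, and that on *Pou5f1* under 3 of 14 against control XY. The fall of *Nanos3* was no longer called without control XX replicate 2 (log2 fold change -0.91, adjusted p = 0.0632, edgeR). *Dazl* was 2.59-fold and *Ddx4* 2.07-fold higher in dKO XY than in control XX interstitial cells. Both genes chose the cells, and the rule took cells high in both out of this class, so these folds are a description only. The summed germ markers were lower in dKO XY than in control XX interstitial cells, at 28.2 and 27.5 CPM against 63.7 and 48.8, with 36.8 and 38.6 in control XY. They were also lower in dKO XY than in control XX germ cells. *Rbm46*, 1 of these markers, stood at 25.6% and 23.2% of its germ cell level in dKO XY, where the marker median was 0.79% and 1.47%. Without cells holding *Dazl* or *Ddx4*, the calls held except that on *Dnd1*, which was lost against both controls (adjusted p = 0.0627 and 0.0689, edgeR). The part of germ cell transcripts in these differences was not tested. Interstitial cells of XY libraries lay mostly in other clusters than those of control XX. *Dppa3* was likewise higher in dKO XY than in control XX in endothelial, pericyte, epithelial and immune cells, which were not tested. It was at 5.39 and 10.6 against 0.363 and 0.196 CPM in endothelial cells, with 3 and 1 UMIs in control XX. In immune cells it was at 12.9 and 17.6 against 6.65 and 3.79 CPM. Leydig cells had 6.77 and 8.82 CPM in dKO XY, against 0.510 and 0.560 in control XY.

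**Figure D5:**
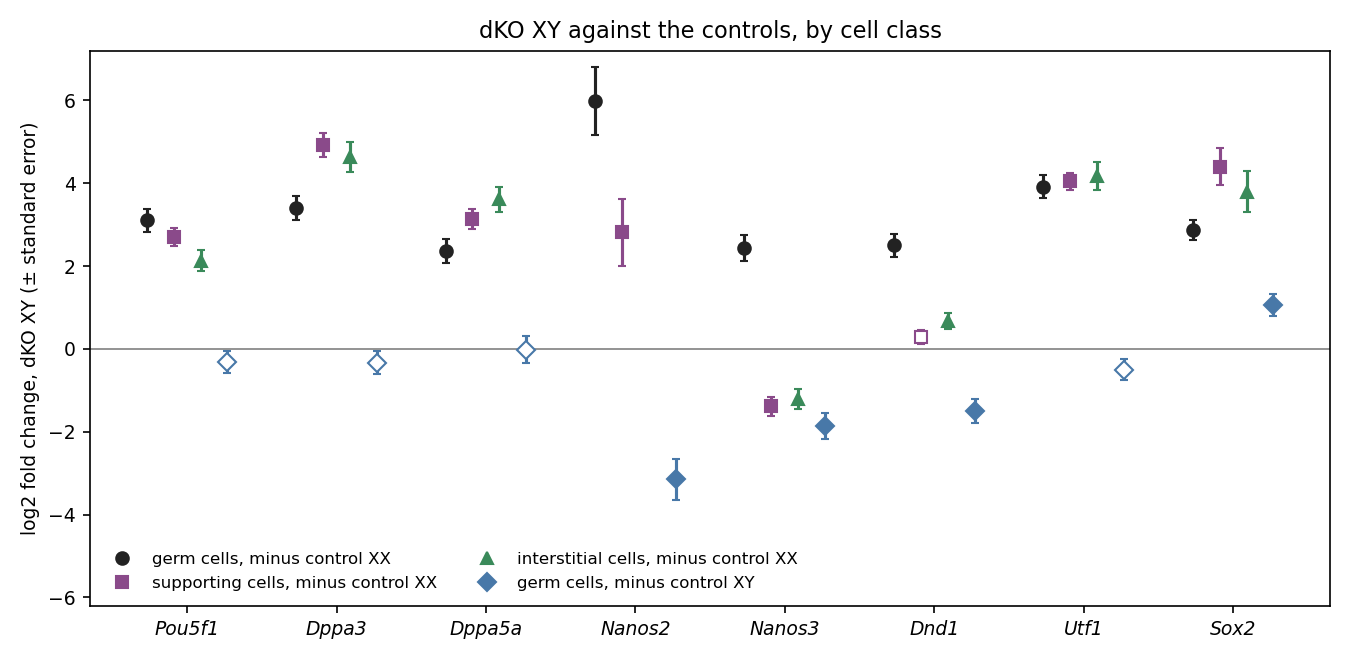
log2 fold changes of dKO XY with standard errors for the 8 genes that did not choose the cells, in germ, supporting and interstitial cells against control XX and in germ cells against control XY. Filled symbols passed an adjusted p of 0.05 and hollow symbols did not, and *Nanos3* lies above 0 in germ cells against control XX and below 0 in both somatic classes.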

How the data were processed

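Single cell mRNA libraries were made on the 10x platform from E15.5 gonads. The authors aligned the reads with Cell Ranger to mm10 and corrected barcode swapping, and the deposited values are raw UMI counts per gene and cell barcode. The submitters' processing notes also name Seurat 4.0. Here the cells kept had between 2500 and 9000 genes, under 25% mitochondrial and under 20% *Hbb* UMIs, and clustered with Seurat 5.3.0 in R 4.3.3, leaving the 10 genes out of the variable genes. Counts were summed per library and class and tested with edgeR 4.0.16 (quasi-likelihood, TMM, filterByExpr), with Benjamini-Hochberg adjustment over all genes tested and calls at 0.05. Germ cells of dKO XY and control XX, and germ subcluster 1, were fitted on the 4 libraries of these groups and other comparisons on all 6. DESeq2 1.42.0 was an alternative. Shares, correlations and doublet scores used Python 3.11.15, scipy 1.17.1 and scanpy 1.11.5. Automatic doublet calls by Scrublet marked 71 cells in control XX replicate 1 and at most 4 in any other library and were not used, and cells with the top 8% of scores were left out as an alternative only. The test was also run on simulated data with far fewer changed genes than were called between dKO XY and control XX germ cells. That run does not vouch for the calls here. Libraries of a group were separate animals, 2 per group.

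The members and gene lists were chosen with earlier results of these data known. Apart from the members, the genes named are, for each list, up to 4 called genes per direction with the largest change in germ cells of dKO XY against control XX, and the 2 genes most like each member. Other genes named, from the control XY and subcluster 1 tests and as leading genes of subclusters, were chosen after their values were seen.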

Additional observations from a re-analysis of the deposited data

Results flagged for a closer look

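The difference between dKO XY and control XX was not the same in germ and somatic cells for several of the genes. The test of that difference, edgeR with library as a block, was chosen after the values were seen, and 31.1% of all genes were called for supporting cells and 35.2% for interstitial cells. For *Nanos3* the log2 fold change in germ cells exceeded that in supporting cells by 3.84 (adjusted p = 7.50e-06) and that in interstitial cells by 3.64 (adjusted p = 7.14e-07). For *Dnd1* it exceeded them by 2.29 (adjusted p = 1.98e-04) and 1.93 (adjusted p = 7.12e-05). *Pou5f1* differed by 1.05 between germ and interstitial cells (adjusted p = 0.0156). For *Dppa3* the germ cell change was smaller than that in supporting cells, by -1.56 (adjusted p = 0.00169), and in interstitial cells, by -1.16 (adjusted p = 0.0152). *Sox2* gave -1.56 against supporting cells (adjusted p = 0.0123) and *Dppa5a* -1.20 against interstitial cells (adjusted p = 0.0121). Against the other class these 2 genes did not pass, at -0.76 for *Sox2* (adjusted p = 0.285) and -0.78 for *Dppa5a* (adjusted p = 0.0901). *Pou5f1* did not pass against supporting cells, at 0.40 (adjusted p = 0.317), and *Utf1* and *Nanos2* passed against neither class. The supporting cell level of *Dppa3* in dKO XY was 31.2 CPM, and 12.7 without cells holding *Dazl* or *Ddx4*, where its log2 fold change was 4.68 in place of 4.92. That of *Sox2* was 3.11 in place of 4.402 without those cells and 4.05 to 5.57 with 1 library left out (highest without control XX replicate 1), from 17 and 2 UMIs in control XX. The difference from germ cells was not tested without those cells. In control XX interstitial cells *Dppa3* rested on 19 and 16 UMIs and *Dppa5a* on 23 and 34. *Dazl*, which chose the cells, had a log2 fold change of -0.16 in germ, 0.49 in supporting and 1.38 in interstitial cells. The part of germ cell transcripts in the somatic fold changes was not tested. All adjusted p are from edgeR with 2 libraries per group.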

How the results depend on the processing

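No result changed direction past the threshold under any alternative run. In germ cells of dKO XY against control XX, 7 or 8 of the 8 genes were called in each of 18 alternatives, and 4043 to 7669 genes in all. Against control XY the 415 calls became 1277 with no filter on low counts, 157 with a looser rule (*Dazl* at least 2 and *Ddx4* at least 1) and 637 (an alternative chosen after seeing the data) for cells that also lay in the germ cluster. They ranged from 66 (without control XY replicate 1) to 683 (without control XX replicate 2) when 1 library was left out, with 2 to 4 of the 8 genes called. In supporting cells against control XY, leaving out 1 library gave 1178 (without control XY replicate 2) to 2757 calls, 1791 without dKO XY replicate 2, and 2 to 6 members, against 2740 and 6. In interstitial cells against control XY, 1103 calls became 1695 with no filter and 314 to 1214 with 1 library left out, the lowest without control XY replicate 1, with 442 without control XY replicate 2 and 632 without dKO XY replicate 2. Within germ subcluster 1, 493 calls became 305 to 406, with the lowest without dKO XY replicate 1.

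Replicate numbers are taken only as names here. Deviations of libraries with the same number correlated at -0.047 to 0.103 against control XY, and negatively, at -0.239, -0.179 and -0.204, in germ, supporting and interstitial cells against control XX. With the replicate block the calls in interstitial cells against control XY fell to 690 and in germ subcluster 1 to 345, and the call on *Sox2* in germ cells against control XY was lost (adjusted p = 0.0545, edgeR). *Dnd1* in interstitial cells was also lost under it (adjusted p = 0.0667 and 0.0917). The crossed pairing, chosen after seeing the data, gave 7669, 7564 and 5933 calls in these 3 classes, in place of 6042, 6321 and 4424.

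With 2 libraries per group, an exact permutation test of a single value cannot go below 0.333, so calls rest on the spread shared across genes. The 24 germ cells of control XY limit every value in that group.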
